A study of Homo sapiens with 4 samples.

Results

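Band 11q13.1 of chromosome 11, which carries NEAT1 and MALAT1, held 676 of the 115384 peaks of the transcription factor ELF5 listed for T47D cells. T47D is an established cell line of human luminal A breast epithelium, here grown in RPMI with serum and insulin and given no treatment. Chromatin was immunoprecipitated for ELF5 in 3 samples, and 1 input sample from the same line was sequenced. The data are 1 deposited list of peaks on hg19, which gives no value per sample. Its track name holds 1-3, which may stand for samples 1 to 3 or for samples 1 and 3, so whether the list rests on all 3 ELF5 samples or on 2 of them is not known. The spread between replicates is therefore unknown for every peak, and no group was tested against another. The peaks described here are those whose summit, the position of highest enrichment, lay between 63400 and 65900 kb, leaving out 65515 to 65605 kb. That leaves 2.41 Mb. Positions of peaks are on chromosome 11 of hg19 and start from 1. The band was chosen by its density of strong peaks, which was known to be the highest among euchromatic bands of at least 2 Mb, so its density and its folds are given as a description and without a test.

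ELF5 belongs to the ETS family, whose members bind DNA around a GGAA core, and in the mouse mammary gland it directs the alveolar fate of luminal cells. NEAT1 and MALAT1 are neighbouring genes for long noncoding RNAs that stay in the nucleus and are abundant in many cell types. NEAT1 RNA is the scaffold on which paraspeckles assemble, and MALAT1 RNA gathers in nuclear speckles beside splicing factors. Both genes are transcribed towards higher coordinates, so the low end of each interval is its start. The intervals used were 65190 to 65213 kb for NEAT1 and 65265 to 65274 kb for MALAT1, and both are given only to the nearest kb. In the RefSeq gene order, SLC25A45, FRMD8 and TIGD3 precede NEAT1. The microRNA gene MIR612 lies within NEAT1 in that annotation, and the noncoding RNA genes ENEMAL and LINC02736 come between NEAT1 and MALAT1. Listed next after MALAT1 are TALAM1, its antisense RNA, and MASCRNA, the small RNA cut from the end of the MALAT1 transcript. The order alone does not place either of them beyond the gene.

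The promoters used held no entry for NEAT1, so no sequence is shown for it. RefSeq gives MALAT1 a pair of start sites on the plus strand, 1307 bp apart. The sequences from 250 bp before to 50 bp after each are shown because 2 strong peaks lay in the first 2 kb of the MALAT1 interval. The build of these sequences is GRCh38.p14. Their coordinates cannot be set against the hg19 peaks, and none were carried over. Capitals mark GGAA, the ETS core, or its reverse complement TTCC.
MALAT1 first start, chr11:65497488-65497787: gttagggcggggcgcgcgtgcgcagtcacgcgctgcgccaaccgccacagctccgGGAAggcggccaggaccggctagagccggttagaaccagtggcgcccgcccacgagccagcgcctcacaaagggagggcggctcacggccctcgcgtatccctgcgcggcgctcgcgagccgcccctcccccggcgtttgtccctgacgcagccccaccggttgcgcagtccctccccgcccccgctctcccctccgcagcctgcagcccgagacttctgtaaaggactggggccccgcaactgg
MALAT1 second start, chr11:65498795-65499094: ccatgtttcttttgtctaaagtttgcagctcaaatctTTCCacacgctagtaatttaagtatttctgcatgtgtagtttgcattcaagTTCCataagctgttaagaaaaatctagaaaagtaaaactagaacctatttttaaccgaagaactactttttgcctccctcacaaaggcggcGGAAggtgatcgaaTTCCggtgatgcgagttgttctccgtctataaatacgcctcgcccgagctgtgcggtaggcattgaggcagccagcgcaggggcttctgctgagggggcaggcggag
The first sequence is 73.7% G and C and holds 1 GGAA. The second is 46% G and C and holds 4 cores, 1 as GGAA and 3 as TTCC, and 2 of these 4 extend to CGGAA or its reverse complement TTCCG. The median over all 35116 promoters of the table was 58.7% G and C. GGAA on either strand is found in 95.5% of those promoters and CGGAA in 34.9%, so the core alone sets MALAT1 apart from few genes. CCGGAAG was in neither sequence, and in 10.3% of all promoters.

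Each peak is described by 3 quantities. The fold is the authors' enrichment at the summit over a local background. The pileup is the number of fragments stacked at the summit. The background is the number expected there, on a scale in which pileups are multiplied by 0.910. Both were recovered from the deposited fold and p. The fold sets the scaled pileup over the background, with 1 added to each. It is therefore not the plain ratio of the pileup and background printed here. A peak is called strong here when its fold is among the highest 10% of the whole list, which begins at 11.99. The interval given in parentheses after a fold is the exact Poisson 95% interval of its pileup, carried to the fold at a fixed background, and covers counting error only.

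Most peaks of 11q13.1 were weak and a minority was strong, as in the whole list. Of the 676 peaks, 246 had a fold under 3, 288 a fold of 3 up to 6, 54 a fold of 6 or more without being strong, and 88 were strong. That is 13.0% of the band's peaks (exact binomial 95% interval 10.6 to 15.8), against 10.0% of the whole list. The band was chosen for these peaks, so nothing is read from that excess. The median fold was 3.30, with an interquartile range from 2.76 to 4.87, against 3.66 (2.98 to 5.50) in the whole list. A fold under 3 was found for 36.4% of the band's peaks and for 25.3% of the whole list. A fold of 6 or more was found for 21.0% of the band's peaks and for 22.6% of the whole list. The band therefore combined many weak peaks with many strong ones, at 280 peaks and 36.5 strong peaks per Mb. The low median fold was shared by the neighbouring band 11q13.2, at 3.25 (2.75 to 4.51). The median was 3.53 in the neighbour 11q12.3, 4.88 in 19q13.32 and 4.02 in 19p13.3. The median background was 4.06 fragments in 11q13.1 and nearly the same in 11q13.2. It was 4.93 in 11q12.3, 2.29 in 19q13.32, 2.02 in 19p13.3 and 3.11 in the whole list. The part of the background in these folds was not tested.

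The authors' q was under 0.05 for 554 of the 676 peaks, or 82.0%, against 87.5% of the whole list. The 122 peaks above that limit had folds of at most 2.87 and pileups of at most 21. The weakest strong member, at 63448674 to 63449577, had a fold of 11.99, and the highest fold below the threshold was 11.97, at 64109734 to 64110513. These 2 peaks cannot be told apart at this depth, since the fold of the first had an interval from 9.52 to 14.9.

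**Figure D1:**
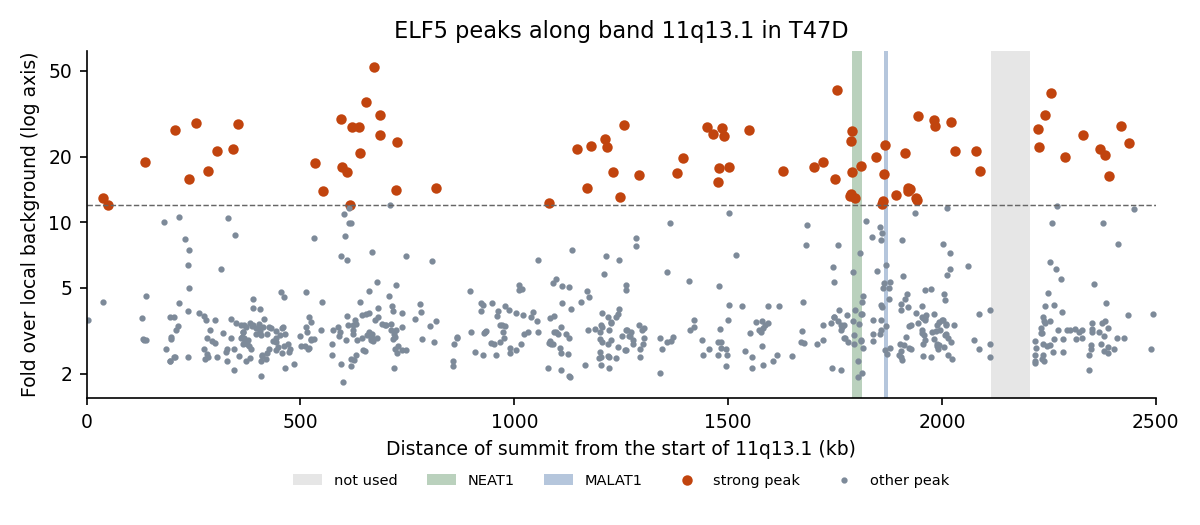
Fold over local background (log axis) of each of the 676 peaks by the distance of its summit from the start of 11q13.1 in kb; the dashed line is the threshold of 11.99 for strong peaks, the coloured strips are the NEAT1 and MALAT1 intervals, and the grey strip was not used. Strong peaks stand in groups separated by gaps, while weak peaks run through most of the band.

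The strongest peak of the band lay well away from NEAT1 and MALAT1. It covered 64071775 to 64074500 with a fold of 52.2 (45.8 to 59.3), from a pileup of 236 over a background of 3.13. It ranked 73 by fold in the whole list and 23 by p. Its interval overlaps that of the second peak, which reaches up to 46.3, and lies above those of the other 8 of the 10 highest.

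The second peak covered 65153673 to 65154616, on the low side of NEAT1, with a fold of 40.6 (35.4 to 46.3) and a pileup of 217. The third, at 65655424 to 65656563, had a fold of 39.5 (34.9 to 44.5) and the highest pileup of the band, 265, over a background of 5.13. The fourth, at 64051635 to 64053654, had a fold of 35.9 (31.1 to 41.3). The intervals of these 3 overlap, and their order is not resolved.

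The other 6 of the 10 highest folds ran from 28.8 to 31.4. They lay at 65640739 to 65641470, 64085371 to 64086544, 65342989 to 65344217, 63992613 to 63994092, 65380989 to 65382050 and 65419864 to 65420673. Of these 10 peaks, 5 ranked in the top 10 of the band by p as well. The top 5 by p included 2 others, at 65819229 to 65820137 with a fold of 27.9 over a background of 6.21 and 63753287 to 63754734, where the fold was 28.5 over a background of 6.0. A high background lowers the fold for a given pileup. No gene was assigned to these positions.

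NEAT1 had its strongest ELF5 peak across its start and a run of strong peaks just before it. The peak across the low end of the interval covered 65189425 to 65191121, 1697 bp, with a fold of 26.4 (22.9 to 30.2), from a pileup of 204 over a background of 6.07. Its summit lay 302 bp inside the interval, which is less than the precision of the interval's end. It ranked 23 by fold among the 676 peaks.

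In the 10 kb before NEAT1 there were 5 peaks, and 4 of them were strong. The widest peak of the whole band lay there, at 65184367 to 65187167, 2801 bp wide, with a fold of 23.7 (20.4 to 27.4) and a pileup of 181. Between it and the peak at the start were a peak of fold 17.0 (14.4 to 19.9), from 65188506 to 65189275, and a narrow one of fold 13.5 (11.1 to 16.4), from 65187420 to 65187740. The peak at 65183858 to 65184237, also narrow, had a fold of 13.24 (10.8 to 16.1). The remaining peak, at 65181309 to 65181474, had a fold of 2.81 and was not strong. Of the 4 strong peaks, the 2 narrow ones have intervals that include the threshold of 11.99. With strong taken as the highest 5% of folds, 1 of the 4 remains, the widest peak.

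These peaks made the stretch from 65180 to 65190 kb the one with the most strong summits among 242 windows of 10 kb counted from the band's start. It had 4 with the highest 10% of folds. With the highest 5% it had 1, while 6 other windows had 2, the most in any window. With the highest 10%, and counting it, 3 windows had 3 or more and 67 had at least 1. Peaks covered 44.4% of its bases, counting each peak whole, against 11.3% over the band. The stretch was singled out after its values were seen. These 4 and the strong peak across the start lay 129 to 765 bp apart at their edges, and the list does not say whether they are separate sites or parts of 1 enriched stretch.

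Within the NEAT1 interval 16 peaks had their summit, and 3 were strong. Besides the peak at the start, these were a peak of fold 13.0 (10.5 to 15.9) from 65197292 to 65197896 and one of fold 18.2 (15.0 to 21.8) from 65209656 to 65210123. Their summits were 7727 and 19932 bp from the low end, so 1 lay towards the start of the gene and the other near its far end. The second of them, with a pileup of 112, stands above the first by fold, though their intervals touch between 15.0 and 15.9.

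The other 13 peaks in NEAT1 had folds from 1.93 to 7.21. The highest of these, at 65209297 to 65209536, had a fold of 7.21 (5.27 to 9.65) and stood next to the strong peak near the far end. A peak at 65191209 to 65191686, next to the one across the start, had a fold of 5.91 (4.34 to 7.89). The remaining ones had folds of at most 3.93, and their intervals overlap each other. The authors' q was under 0.05 for 15 of the 16, and the exception, at 65203411 to 65203628, had a q of 0.277. The longest part of NEAT1 without a summit lay in its middle, between 65197728 and 65203625.

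MALAT1 had its 2 strong peaks at its start and weaker ones between and beyond them. The first covered 65264767 to 65265482, across the low end of the interval, with a fold of 16.7 (13.9 to 19.8), from a pileup of 126 over a background of 5.94. Its summit was 17 bp inside the interval, again within the rounding of the interval's end. The second, at 65266368 to 65266843, had a fold of 22.6 (18.99 to 26.7), from a pileup of 137 over a background of 4.56. The pileups of these 2 differed by less than counting error, and the higher fold of the second came with the lower background. Their summits were 1498 bp apart.

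Between them lay a peak at 65265773 to 65266115 with a fold of 2.59 (1.81 to 3.60). Its background of 11 fragments was the highest in the NEAT1 and MALAT1 stretch and was equalled by 1 other peak of the band. The other 3 peaks in MALAT1 had folds of 6.38 (4.84 to 8.27) at 65267835 to 65268557, 3.32 at 65269182 to 65269374 and 2.48 at 65272148 to 65272324. Both strong peaks were thus in the first 2 kb of MALAT1, with a weak one between them. With strong taken as the highest 5% of folds, 2 of the 5 strong peaks of NEAT1 and MALAT1 remain, those of fold 26.4 and 22.6.

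The 10 kb before MALAT1 differed in make-up from the 10 kb before NEAT1. It held 12 peaks, of which 2 were strong, with a fold of 12.2 (9.88 to 14.8) from 65259086 to 65259595 and a fold of 12.51 (10.1 to 15.4) from 65261338 to 65261647. Both lie near the threshold of 11.99, and their intervals include it. The other 10 ran from 3.04 to 9.50. Before NEAT1, 4 of 5 peaks were strong and 1 reached a fold of 23.7, and 2 of these 4 also had intervals that include the threshold; with so few peaks and no replicate values the difference was not tested.

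Over the 52 kb between the genes there were 23 peaks, which include the 12 just before MALAT1, and 3 were strong. The third of these stood apart from the genes, at 65244406 to 65245600, with a fold of 20.1 (16.9 to 23.6). Just beyond MALAT1, in the next 10 kb, there were 4 peaks and none was strong, with folds from 2.63 to 5.29. Taking the 94 kb from 10 kb before NEAT1 to the end of MALAT1 together, 12 of 50 peaks were strong. This stretch is 3.90% of the bases analysed and held 7.40% of the band's peaks and 13.6% of its strong peaks, and its ends were set after the values were seen.

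The local background was also raised here. Its median was 6.0 fragments over the 50 peaks of that stretch, with a range from 3.60 to 11, against 4.06 over all 676 peaks. The part of this background in the folds was not tested. Within the NEAT1 interval the median was 6.0 and within MALAT1 6.34. In the 100 kb from 65200 to 65300 kb, which holds most of NEAT1 and all of MALAT1, the median of 6.0 was the highest of the 23 complete bins of 100 kb, and the lowest was 3.63.

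**Figure D2:**
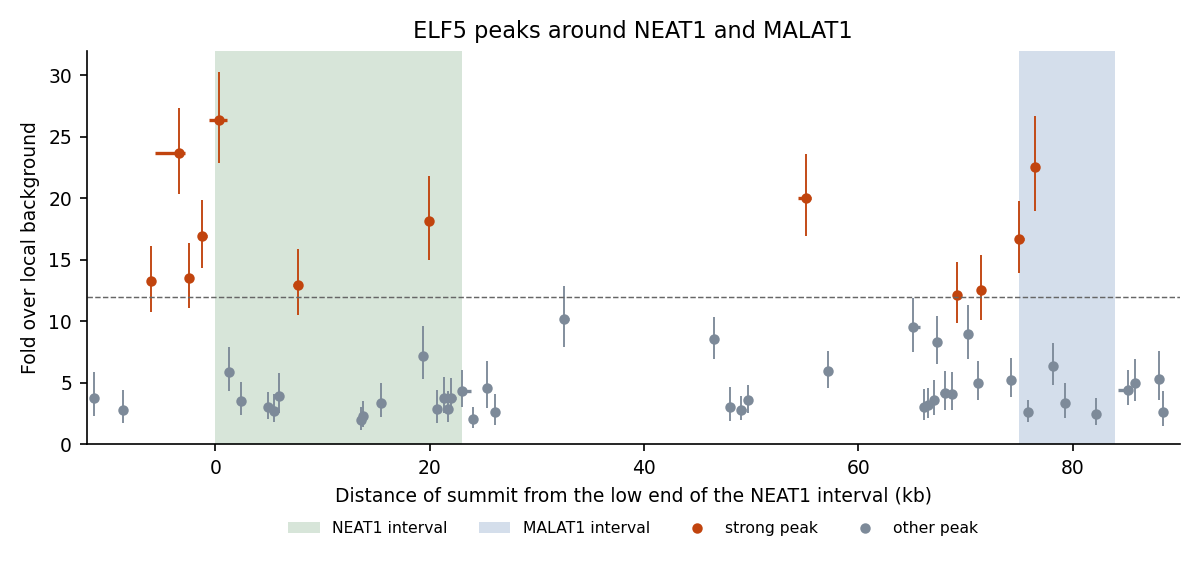
Fold over local background of each peak by the distance of its summit from the low end of the NEAT1 interval in kb; vertical lines are exact Poisson 95% counting intervals, horizontal lines the peak's extent, shaded areas the NEAT1 and MALAT1 intervals, and the dashed line the threshold of 11.99. Strong peaks stand at the starts of NEAT1 (26.4) and MALAT1 (16.7 and 22.6) and in the run before NEAT1. Others stand further inside NEAT1 (up to 18.2) and between the genes (up to 20.1).

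Along the band, strong peaks were unevenly spread, and their number did not simply follow the number of peaks. Bins of 100 kb that were used in full held from 4 to 57 peaks, with a median of 26, and from 0 to 10 strong peaks, with a median of 3. The bin from 65100 to 65200 kb, which includes the start of NEAT1, had the most strong peaks, 10 of 36. The bins from 64000 to 64100 kb and from 65300 to 65400 kb followed with 9 of 52 and 9 of 57. The bin from 64800 to 64900 kb had 6 of 23. By contrast, the bin from 63800 to 63900 kb had 37 peaks, above the median, and no strong one, and its highest fold was 4.75.

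The longest stretch without a strong summit ran for 265 kb, from 64215962 to 64480949. It was not empty, with 48 peaks, but the highest fold among them was 6.69. Its median background was 3.92, close to the 4.06 of the band.

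**Figure D3:**
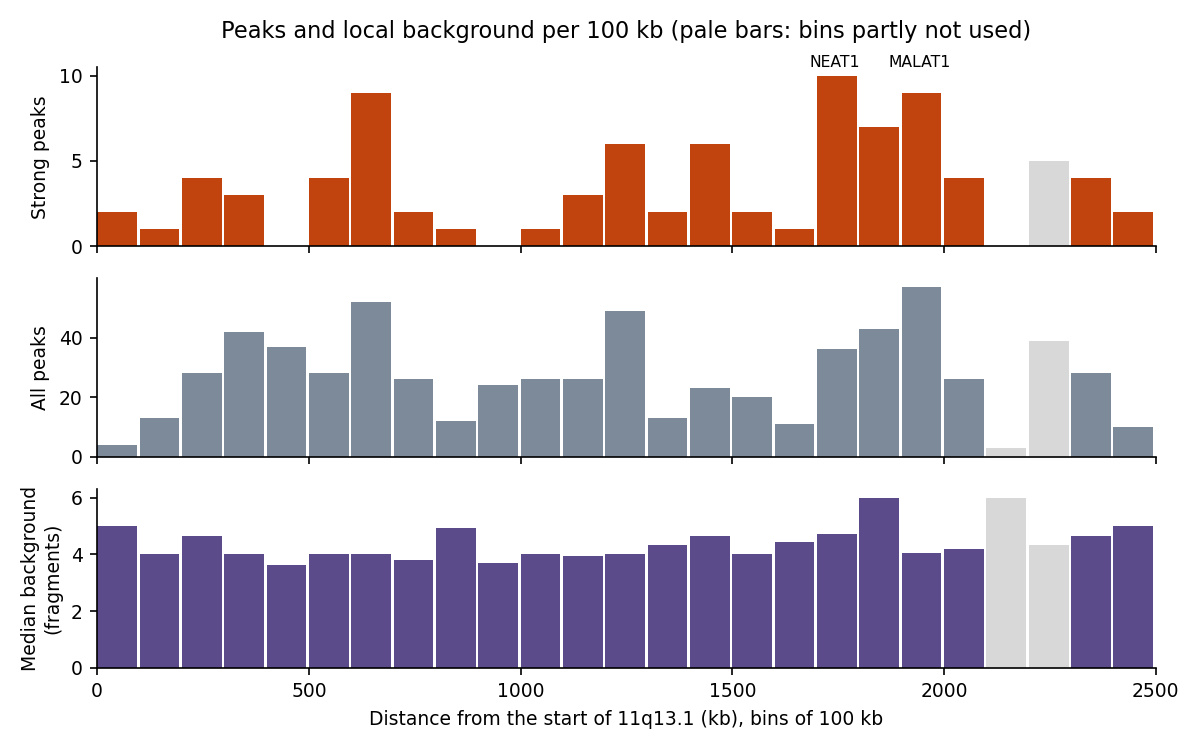
Number of strong peaks, number of all peaks and median local background in fragments for each bin of 100 kb along 11q13.1, by distance from its start in kb; pale bars are bins used only in part. The bin with the start of NEAT1 has 10 strong peaks, and the next bin has the highest median background of the complete bins, 6.0.

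Neighbouring peaks were close, and in 11q13.2 they were closer still. Neighbouring summits of 11q13.1 lay a median of 1663 bp apart over 674 distances. The median was 1519 bp in 11q13.2, 2382 bp in 11q12.3, 3008 bp in 19q13.32 and 2160 bp in 19p13.3. Of the 674 distances, 227, or 33.7%, were of 1000 bp or less, a share not computed for the other bands. The shortest was 78 bp and the longest 79.9 kb. Strong summits were a median of 14.2 kb apart, and 35 of the 88 had another strong summit within 5 kb. The nearest other summit was a median of 1216 bp from a strong one and 832 bp from the others.

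Joining peaks across short gaps, of the length given with the processing, gave 33 regions, of which 14 held 10 or more peaks. These 14 held 90.4% of the peaks and 88.6% of the strong ones. NEAT1 and MALAT1 fell into 2 different regions. The first, from 65140320 to 65223038, held 45 peaks with 9 strong and included the band's second strongest peak. The second, from 65236370 to 65278507, held 28 peaks with 5 strong. Per 10 kb of their own length these came to 1.09 and 1.19 strong peaks. Other regions were as dense or denser, among them 1.11 from 64839697 to 64902954, 1.36 from 65473908 to 65488654 and 1.64 from 63437381 to 63449577. The densest, at 6.61, was a short region of 3 peaks with 1 strong, from 65121389 to 65122902. Each region starts and ends on a peak, so these densities are not comparable with one over the whole band.

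The region with the most strong peaks, 13 of 85, ran from 63973442 to 64146566 and included the strongest peak and the fourth. Next was the one from 65292219 to 65431463, beyond MALAT1, with 12 of 78. The region with the most peaks, 91 from 63655706 to 63885554, had only 5 strong ones. Another, from 64321048 to 64456560, held 37 peaks and no strong one.

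Strong peaks were wide, in the band as in the whole list. Their median width was 1023 bp, with an interquartile range from 740 to 1452, against 216 bp for the other 588 peaks of the band. In the whole list these medians were 818 and 201 bp. Strong peaks had a median width of 968 bp in 11q12.3, 934 bp in 11q13.2, 776 bp in 19q13.32 and 772 bp in 19p13.3. Width is partly set by peak height, so it is not a separate trait. Of the band's 61 peaks of 1000 bp or more, 45 were strong, a share not computed for the whole list. All 7 peaks of at least 2000 bp were strong, which is 1.04% of the band's peaks, against 0.448% of the whole list. The share of peaks this wide was 1.07% in the neighbouring band 11q13.2 and 0.5% in 11q12.3. Besides the widest, before NEAT1, the broadest were the strongest peak, at 2726 bp, and the peaks at 63683676 to 63686036 (2361 bp, fold 17.2), 64035781 to 64038085 (2305 bp, fold 27.6) and 63952459 to 63954565 (2107 bp, fold 13.97).

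Width did not decide strength. The widest peak that was not strong covered 1950 bp, at 64609389 to 64611338, with a fold of 5.78. Only 3 strong peaks were narrower than 400 bp, at 380, 321 and 310 bp, and all 3 lay beside NEAT1 or MALAT1 within the 10 kb before their starts. The rank correlation of width with fold was 0.654 across the 676 peaks and 0.598 across the whole list, where the points share 1 set of libraries. The smallest width of the list, 135 bp, was shared by 40 of the band's peaks, 5.92%, against 9.27% of the whole list, and their highest fold was 3.85. In 11q13.2 that width was held by 6.62% of peaks and in 11q12.3 by 4.5%.

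**Figure D4:**
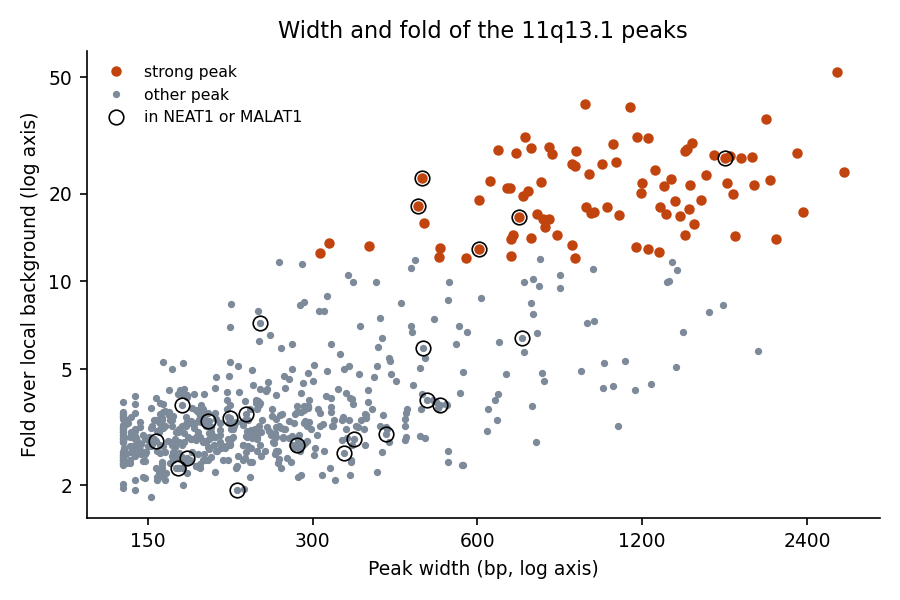
Width in bp and fold over local background of the 676 peaks, both on log axes, with strong peaks in colour and the peaks in NEAT1 or MALAT1 circled. Strong peaks are mostly wider than 400 bp, and the strong peaks at the start of MALAT1, 716 and 476 bp wide, lie below the strong peaks' median width of 1023 bp.

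The background of strong peaks was alike in the band and its neighbours on chromosome 11, and lower in 2 bands of chromosome 19. Among the bands compared here, those 2 came nearest to 11q13.1 in strong peaks per Mb. All are values of 1 list and were not tested. Strong peaks had a median background of 5.00 fragments in 11q13.1, against 5.00 in 11q12.3, 4.72 in 11q13.2, 2.52 in 19q13.32, 2.16 in 19p13.3 and 3.10 in the whole list. Their median pileup was 132 in 11q13.1, against 146 in 11q12.3, 144 in 11q13.2, 86.5 in 19q13.32, 69.0 in 19p13.3 and 92.0 in the whole list. Their median folds lay close together, at 20.2 in 11q13.1, against 21.0 in 11q12.3, 19.3 in 11q13.2, 20.8 in 19q13.32 and 18.8 in 19p13.3. At like folds a higher background entails a higher pileup. The higher pileups of 11q13.1 than of the 2 bands of chromosome 19 are therefore not a separate result.

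In density, 11q13.1 stood above the other 4 bands. It held 36.5 strong peaks per Mb, against 16.5 in 11q12.3, 20.8 in 11q13.2, 25.7 in 19q13.32 and 24.5 in 19p13.3. This order is what the band was chosen for. Strong peaks made up 13.0% of the peaks in 11q13.1, against 14% in 11q12.3 (9.51 to 19.6), 9.30% in 11q13.2 (7.03 to 12.02), 18.1% in 19q13.32 (14.4 to 22.2) and 13.11% in 19p13.3 (11.3 to 15.1). Its share was thus within the range of the other 4 bands, and its density came with a high density of all peaks, 280 per Mb, against 118 in 11q12.3, 224 in 11q13.2, 142 in 19q13.32 and 187 in 19p13.3. Peaks covered 11.3% of the bases of 11q13.1, against 4.74% of 11q12.3, 8.37% of 11q13.2, 5.83% of 19q13.32 and 7.12% of 19p13.3.

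**Figure D5:**
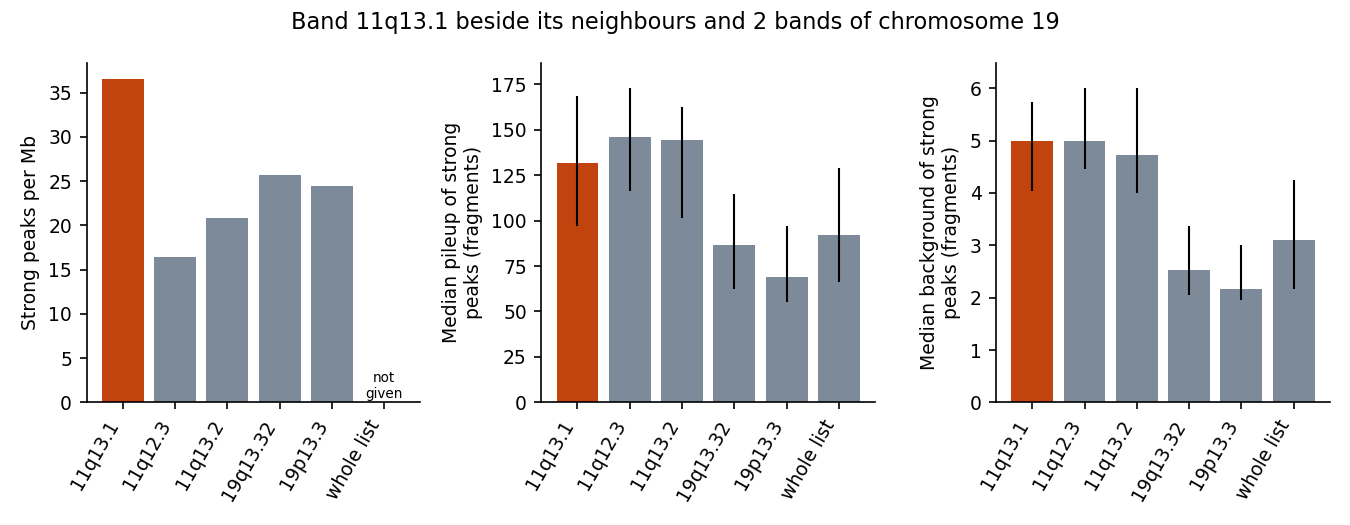
Strong peaks per Mb, and the median pileup and median background of strong peaks in fragments, with black lines from the 25th to the 75th percentile over peaks, for 11q13.1, its neighbours 11q12.3 and 11q13.2, the bands 19q13.32 and 19p13.3, and the whole list. The 3 bands of chromosome 11 have medians of 4.72 to 5.00 for the background, and those of chromosome 19 have 2.16 and 2.52.

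The peaks at the ends of the band were not strong. The first peak inside the low end, at 63403274 to 63403463, had a fold of 3.55, and the nearest outside, at 63380915 to 63382200, had 8.33. The last peak inside the high end, at 65894297 to 65894484, had a fold of 3.76, and the nearest outside, at 65902062 to 65902254, had 5.99. The outermost strong members lay at 63438228 to 63439455, with a fold of 12.9, and at 65837131 to 65838701, with a fold of 23.2.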

How the data were processed

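ELF5 ChIP-seq of T47D cells in 3 samples, with 1 input, was deposited as 1 list of 115384 peaks. The build is hg19, per the file headers and also per the submitters' processing notes, and the track is named for IDR and 1-3, which does not settle whether 3 or 2 of the ELF5 samples entered it. Not given in the sources used here are the peak caller, its threshold, the use of the input, any pooling of replicates and whether these were separate cultures. The antibody is listed per sample, while the labels' protocol names antibodies to other factors. For each peak, −log10 p and −log10 q were taken as the authors deposited them. The authors' signal value was used as a fold, a ratio of scaled pileup to local background with a pseudocount of 1 added to each. The deposited score equals the whole part of 10 times −log10 p in all 115384 peaks and was not used further.

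The fold and p of all 115384 peaks were matched, within 0.001 of −log10 p, by whole pileups times a factor of 0.910, a pseudocount of 1 in the fold and a Poisson tail; 95 peaks, 2 of them in 11q13.1, had a second pileup within that tolerance. Pileups and backgrounds are inferred from these values, and the total reads per sample are unknown. On 4991 peaks simulated with this same formula and a factor of 0.773, 100% of pileups were recovered. The same share was recovered on 4984 peaks with a factor of 0.944. This checks the calculation only, since the simulated peaks follow the formula by construction, and not whether the authors' values were made by it. Bands came from circlize 0.4.16 in R 4.3.3. The analysis ran in Python 3.11.15 with pandas 2.3.3, numpy 2.4.6, matplotlib 3.10.9 and scipy 1.17.1. Peaks at most 12500 bp apart were joined into regions.

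Members and lists were chosen with earlier results of these data known, and no test was run. Peaks named were those in NEAT1 and MALAT1 that were strong, with others by range or example, the 10 highest by fold, the 5 highest by p, the 5 widest, and those at the ends of the band; peaks beside the 2 genes, joined regions and other single peaks were chosen after their values were seen. Alternatives were other definitions of strong, a stricter list, a limit on q, overlap in place of the summit, and other joining distances. Genes at peaks, and motifs in peaks, were not analysed here for want of an hg19 sequence or annotation. Promoters are RefSeq's on GRCh38.p14, and MALAT1 matched 2 entries.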

Additional observations from a re-analysis of the deposited data

How the results depend on the processing

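Of 32 alternative values, 17 differed from the reported one by over 1.5 times, or, for a median, left its 95% binomial interval, and 15 did not. Keeping only the highest 50% of folds of the list, 11q13.1 held 258 peaks in 60 joined regions, NEAT1 8 and MALAT1 3, with a median fold of 7.0, a median width of 511 bp and a median spacing of 4472 bp. With q under 0.05 these 3 medians were 3.54, 266 bp and 2084 bp. Strong peaks numbered 50 with the highest 5% of folds and 133 with the highest 20%, against 88; with the highest 5% there were 2 in NEAT1 and MALAT1 together, against 5, 1 in the 10 kb before NEAT1, against 4, and at most 2 in a window of 10 kb, against 4. Joining within 5 kb gave 118 regions and within 25 kb 10, against 33. The alternatives for the 10 kb before NEAT1, and for windows of 10 kb, were chosen after seeing the data. Leaving out replicates and the alternatives on promoter classes and motifs at summits were not run, since there are no values by replicate and no sequence of its build was used. No paired analysis was possible because replicates have no values of their own. Pileups limit the ranking of weak peaks: the median of 18 gives counting intervals that overlap for most of them.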

Other observations

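Ranking by p in place of fold brought in 15 more peaks of 11q13.1 among the highest 10% of the list and lost none of the 88 strong ones. Their folds ran from 7.45 to 11.97, and their median background was 5.4 fragments, against 4.06 over the band. The highest background of the band, 11 fragments, was shared by 2 peaks. One is the weak peak between the 2 strong ones of MALAT1, and the other covered 64004800 to 64005330 with a fold of 8.65 (7.14 to 10.4) and a pileup of 113. The peak over the lowest background, 2.69 fragments, covered 64668413 to 64668547 with a fold of 2.99 (1.63 to 5.13) and a pileup of 11. No peak of the band stood on the lowest background of the list, 1.81 fragments, which 8.55% of all peaks had.

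Summits of strong peaks lay near the middle of the peak, at a median of 45.6% of its width, and within the middle 50% for 70 of 88. The peak at 65184367 to 65187167 before NEAT1 had its summit at 81.1% of its width, on the side nearer to NEAT1.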
